A study of Mus musculus with 4 samples.

Results

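The comparison described here is that of XX germ cells carrying an Oct4-CreERT2 transgene (FC) with XX germ cells lacking it (F), across every gene that could be named on the array. For each gene the difference is the deposited log2 signal of FC minus that of F, so that a difference of 1 is a 2-fold higher signal in FC. Of the 65956 transcript clusters of the array, 31292 were named for 1 gene, and the cluster of highest mean signal over the 4 arrays of the series represented each gene, which gave all 30738 named genes as members. The F array and the FC array were each hybridized with 1 sample, so no difference has a replicate check and no p-value is given. All embryos were Max fl/fl on a C57/BL6 background. Those of both groups had been exposed to tamoxifen at E8.5 and were dissected at E12.5. By design FC thus differs from F in the transgene, in which the distal enhancer of Oct4 drives CreERT2, and in the deletion it induces. The arrays F and FC also differed in Y-linked signal and in Xist, as given below. Germ cells were taken from gonads freed of the mesonephros by magnetic sorting with anti-SSEA-1 antibody, and the number of embryos behind each array is not given in the sources used here. M and MC are the arrays of XY germ cells without and with CreERT2, and are used beside F and FC. The labels give the cells as female and male, for which XX and XY are used here.

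MAX is the shared partner of the MYC proteins, which activate genes of growth through the E-box of their promoters, and of MGA, which joins it to the repressor complex PRC1.6. PRC1.6 also holds E2F6 and is known in mouse embryonic stem cells and germ cells for keeping genes of meiosis and of the germline silent. XX germ cells of the mouse embryo enter meiosis in the fetal ovary, whereas XY germ cells do not do so in the fetal testis.

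The library labelled F held signal of Y-linked genes. Uba1y, a Y-linked ubiquitin-activating enzyme gene, had a log2 signal of 9.69 in F and 5.52 in FC, with 12.82 in M and 13.26 in MC. Eif2s3y, a translation factor gene, was at 6.60 in F and 4.78 in FC, with 7.90 in M and 8.54 in MC. F lay between FC and the XY arrays for these genes. The same order was found for Uty, at 5.62, 4.65, 6.53 and 6.82, and for Kdm5d, at 5.42, 4.50, 6.28 and 6.33 in F, FC, M and MC. Zfy1, at 5.25 in F and 3.79 in FC, with 5.06 in M and 4.55 in MC, was highest in F and did not follow this order. Zfy2 was at 4.56, 3.68, 4.97 and 4.45, with F between the XY arrays, and Usp9y at 3.99, 3.93, 4.01 and 4.10. Sry was at 7.23 in F and 6.89 in FC, with 6.80 in M and 7.17 in MC and so did not separate the arrays labelled female from those labelled male. All 8 measured genes of the Y-linked list were below 0 in FC minus F, with a median of -0.94, and 3 were at least 2-fold lower. Xist, the RNA that coats the inactive X chromosome, had a signal of 7.80 in F and 10.81 in FC, with 4.55 in M and 4.60 in MC, a difference of 3.01. Cst9, a gene of Sertoli cells, was at 6.21 in F and 4.14 in FC, with 11.12 in M and 12.63 in MC. The summed signal of the 18 Sertoli genes was 10.30 in F and 10.28 in FC, with 11.73 in M and 12.94 in MC (log2). Of the other Sertoli genes, Sox9 was at 6.68 in F and 6.92 in FC, and Amh at 3.52 and 3.31. Every difference below rests on the F array, and the part of this Y-linked signal in the differences was not tested. The MC minus M values given beside them use neither F nor FC.

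Of all genes, 168 had a signal at least 2-fold higher in FC than in F, which is 0.547% of the genes measured, and 156 were lower, which is 0.508%. The median difference of all genes was -0.01, and the quantiles 0.01 and 0.99 were -0.83 and 0.77. The largest positive difference was that of Phlda2, an imprinted gene of placental growth, at 10.19 in F and 14.65 in FC, a 22-fold higher signal, while M and MC were at 7.43 and 6.66. The largest negative difference was that of Uba1y, followed by Cbl, which encodes an E3 ubiquitin ligase and was at 11.83 in F and 8.35 in FC against 11.41 in M and 11.08 in MC. Of the 168 higher genes, FC had the highest signal of the 4 arrays for 155, and for 101 it was at least 2-fold above each of the other 3. F was at least 2-fold below each of the other 3 arrays for 7. Of the 156 lower genes, FC was the lowest of the 4 arrays for 133, and for 53 by at least 2-fold, whereas F was the highest for 105 and for 10 by at least 2-fold. FC thus stood apart from the other arrays more often than F did, more so among the higher genes. Genes chosen on FC minus F tend to have FC or F as an extreme array, so these counts are partly set by that choice. The spread of the differences grew with signal, with a standard deviation of 0.16 for 12452 genes with a mean signal under 4, where 1 gene was 2-fold higher and 0 were 2-fold lower, and of 0.40 between 8 and 10. The median also moved, from 0.02 under a signal of 4 to -0.12 between 8 and 10 and -0.13 between 10 and 12, so that gene groups of high signal are read against that background.

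**Figure D1:**
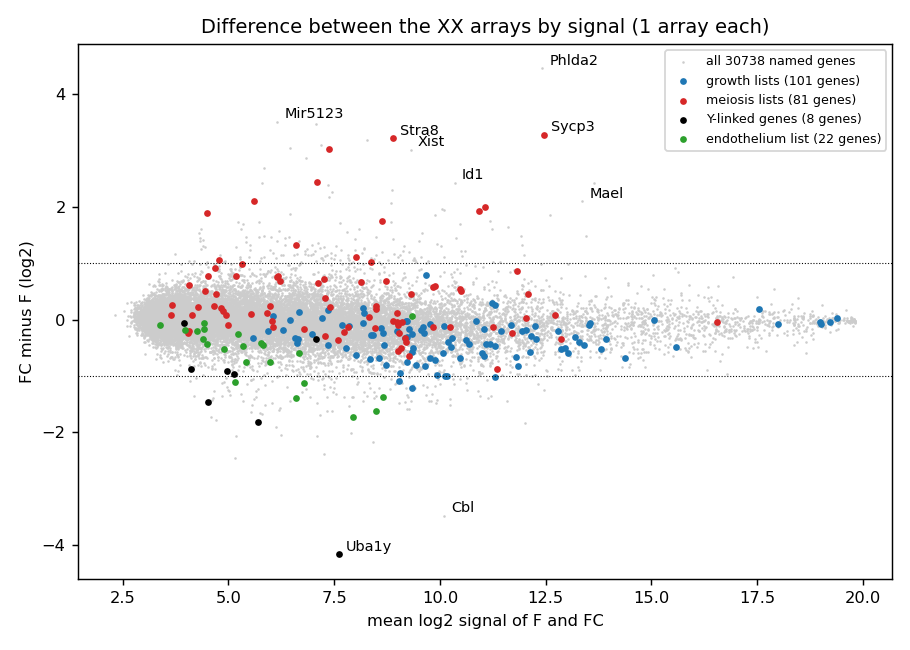
Difference FC minus F (log2, y axis) against the mean log2 signal of F and FC (x axis), each point a gene and each group 1 array, with dotted lines at 2-fold. Of the meiosis genes (red) 13 lie at or above the upper line, with 168 of all genes, growth genes (blue) and endothelial genes (green) lie mostly below 0, and Uba1y (black) and Cbl are the lowest points.

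Of the 168 higher genes 27 were on the meiosis, germline-restricted and piRNA lists, some of them with differences above 3. Sycp3, which builds the axis of meiotic chromosomes, was at 10.81 in F and 14.09 in FC, a 9.71-fold higher signal, and at 9.59 in M and 11.06 in MC. Mael, a piRNA pathway gene that represses transposons, was at 12.31 and 14.41 in F and FC and at 10.60 and 12.68 in M and MC. Tdrd9, a helicase gene of the same pathway, was at 4.58 and 7.01, and at 4.54 and 6.49. Slc25a31, the germline ADP/ATP carrier, was at 9.06 and 11.03, and at 7.59 and 9.75. Taf7l, an X-linked paralogue of a TFIID subunit, was at 4.94 and 7.98, and at 4.51 and 5.69. These 5 genes were chosen for being 2-fold higher with CreERT2 in XX and in XY germ cells, so that agreement is set by the choice. FC was the highest of the 4 arrays for all 5. Stra8, which retinoic acid and BMP signals switch on at meiotic entry, was at 7.28 in F and 10.50 in FC, against 4.65 in M and 5.31 in MC.

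The promoters of the first 5 genes are shown as examples that were chosen because they were 2-fold higher in both sexes and hold the E-box CACGTG, beside that of Stra8, which holds none. Other genes that were 2-fold higher in both sexes hold none either, as given below. Each line gives the 250 bases before the annotated start, 5′ to 3′ on the strand of the gene, from RefSeq on GRCm38.p6, with every CACGTG in capitals.
Sycp3 (chr10:88459337-88459586, plus strand): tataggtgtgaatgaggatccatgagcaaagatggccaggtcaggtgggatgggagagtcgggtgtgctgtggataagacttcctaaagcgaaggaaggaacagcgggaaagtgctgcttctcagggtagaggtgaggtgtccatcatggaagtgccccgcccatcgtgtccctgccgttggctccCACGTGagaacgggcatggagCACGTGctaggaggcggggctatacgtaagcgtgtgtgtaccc
Mael (chr1:166238745-166238994, minus strand): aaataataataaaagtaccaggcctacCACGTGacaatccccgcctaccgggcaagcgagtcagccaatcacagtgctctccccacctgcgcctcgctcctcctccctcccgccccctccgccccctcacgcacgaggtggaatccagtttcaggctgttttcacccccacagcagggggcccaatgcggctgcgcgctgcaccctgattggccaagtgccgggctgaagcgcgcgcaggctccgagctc
Tdrd9 (chr12:111971309-111971558, plus strand): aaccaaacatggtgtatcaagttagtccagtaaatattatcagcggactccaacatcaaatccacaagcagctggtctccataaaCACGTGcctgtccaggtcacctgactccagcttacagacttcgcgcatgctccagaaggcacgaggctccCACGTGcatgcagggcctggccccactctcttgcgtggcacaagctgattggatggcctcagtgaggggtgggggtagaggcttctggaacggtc
Slc25a31 (chr3:40708621-40708870, plus strand): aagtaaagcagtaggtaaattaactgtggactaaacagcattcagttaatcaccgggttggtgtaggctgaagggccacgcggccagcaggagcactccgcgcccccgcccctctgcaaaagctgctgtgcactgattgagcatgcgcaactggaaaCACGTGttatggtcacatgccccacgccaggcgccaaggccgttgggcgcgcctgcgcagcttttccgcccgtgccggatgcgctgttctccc
Taf7l (chrX:134476491-134476740, minus strand): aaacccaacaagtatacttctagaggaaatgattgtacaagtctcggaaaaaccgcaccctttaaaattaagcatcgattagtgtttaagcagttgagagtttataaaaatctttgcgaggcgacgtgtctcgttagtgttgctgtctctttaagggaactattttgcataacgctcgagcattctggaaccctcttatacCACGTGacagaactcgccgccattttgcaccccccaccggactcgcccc
Stra8 (chr6:34920698-34920947, plus strand): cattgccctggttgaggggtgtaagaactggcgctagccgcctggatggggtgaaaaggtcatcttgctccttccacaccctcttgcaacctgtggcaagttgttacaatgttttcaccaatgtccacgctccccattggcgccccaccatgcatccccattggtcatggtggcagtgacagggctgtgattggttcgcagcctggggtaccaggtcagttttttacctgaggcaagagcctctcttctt
The 2 E-boxes of Sycp3 begin 64 and 43 bases before the start, and those of Tdrd9 165 and 95 bases before it. That of Taf7l begins 49 bases before the start, that of Slc25a31 93 and that of Mael 223.

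Over the protein-coding genes, E-boxes were commonest in the promoters of the genes with the largest positive differences. A window of 250 bases before to 50 bases after the start was held for 15605 of 19250 protein-coding genes, and 9.21% of these held CACGTG, which reads the same on both strands. Of the 14 genes with a difference of 2 or more and a window, 7 held it (50%), and of the 97 with a difference of 1 to 2, 15 (15.5%). Of the 79 genes at -1 or less, 10 held it (12.7%). The 7 genes were Sycp3, Taf7l, Bhmg1 (Meiosin), Ctag2l2, Sycp1, Tdrd9 and Mael. TCCCGC, the motif of E2F6, searched on both strands, was held by 29.3% of all windows and by 38 of the 111 higher genes (34.2%), and CACGCG, an E-box variant searched on both strands, by 14.3% and 18 (16.2%). Among the 14 genes at 2 or more these shares were 35.7% and 14.3%. Motifs were counted separately and may share bases, a gene with several starts had several windows, and among all genes with a signal of 8 or more 13.7% held the E-box against 23.5% of the higher genes of that signal.

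The 22 higher genes with an E-box had larger differences than the 89 without one in XX and in XY cells. In FC minus F the medians were 1.72 with and 1.19 without an E-box. MC minus M played no part in calling these genes higher, but the XY arrays entered the choice of cluster for each gene. The median of the 22 in MC minus M was 0.96, with 17 above 0 and 11 at least 2-fold higher. Whether the contrast in XY cells goes with the E-box or with the size of the XX difference was not tested. For the 89 higher genes whose windows held none, the median was 0.12, with 52 above 0 and 7 at least 2-fold higher. Over all protein-coding genes the medians in MC minus M were -0.03 with and 0.00 without an E-box. Of the 18 genes with a window that reached 2-fold in XX and in XY cells, 11 held the E-box (61.1%) and 7 did not, which were Tktl1, Tex101, Ccnb3, H2bc1, Sox30, Ankrd1 and Cox7b2. Of the 93 that were so in XX germ cells alone, 11 held it (11.8%). Of 80 growth genes with a window 20 held it (25.0%), with a median of -0.45 in FC minus F, against -0.32 for the 60 without it. A match is a run of letters, and binding was not measured.

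**Figure D2:**
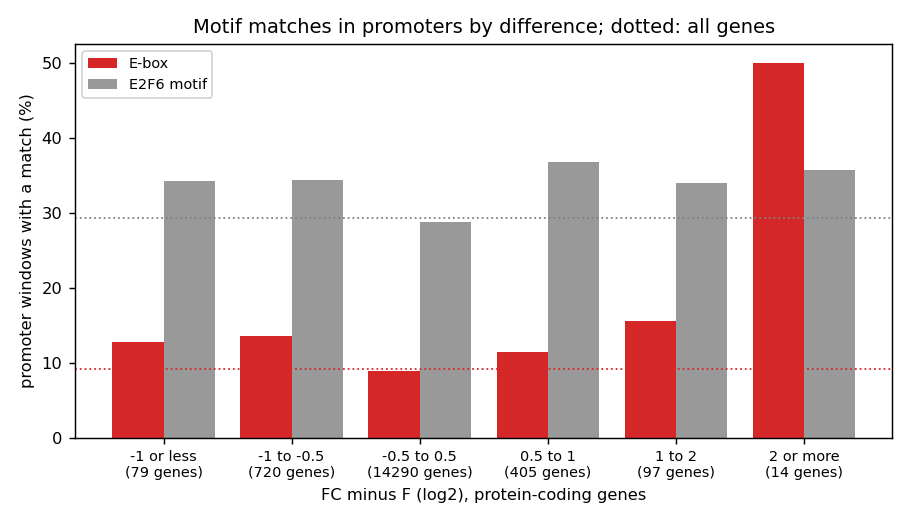
Share of protein-coding genes whose promoter window held a match (y axis, percent) by the difference FC minus F (x axis, log2, number of genes under each group), for the E-box (red) and the E2F6 motif (grey), with the share over all genes dotted. The E-box share is 50% in the group of 14 genes at 2 or more and between 8.83% and 15.5% in the other groups.

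The 6 lists of meiosis genes, ordered by role, differed in how far they were higher. Together they hold 81 measured genes, of which 13 were at least 2-fold higher in FC, 0 were 2-fold lower and 53 were above 0, with a median of 0.22. Of 9 genes of meiotic entry 3 were 2-fold higher. Bhmg1, the partner of STRA8, was at 5.88 in F and 8.90 in FC, and at 4.80 in M and 6.06 in MC. Gata2, a transcription factor gene of the BMP response, was at 5.94 in F and 7.26 in FC, with 5.90 in M and 5.45 in MC. Meioc, which keeps germ cells in meiosis by way of RNA, had a difference of 0.68 and its partner Ythdc2 0.39, while Dazl, an RNA-binding licensing factor already at 16.57 in F, had -0.04.

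The axis and synaptonemal complex held the largest share, with 6 of 14 genes 2-fold higher and a median of 0.73. Beside Sycp3 these were Sycp1, the transverse filament, at 5.87 in F and 8.31 in FC, Hormad1, an axis protein that monitors synapsis, at 10.06 and 12.05, and the central element genes Tex12, at 9.96 and 11.88, Syce3, at 7.45 and 8.56, and Syce1, at 7.85 and 8.88. Of these, Sycp3, Sycp1 and Hormad1 were also 2-fold higher in MC than M, and the 3 central element genes were at 0.00, -0.06 and 0.25 in MC minus M. Hormad2 had a difference of 0.68, Iho1 0.77 and Sycp2 0.64. Trip13, the ATPase that strips HORMAD proteins from the axis, was on the other side at -0.64, and at -1.05 in MC minus M.

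Of 16 cohesin genes the meiosis-specific subunits were above 0 and most general ones near or below it. Rec8, the meiotic kleisin, was at 7.75 in F and 9.50 in FC, and Rad21l, a second meiotic kleisin, at 3.54 and 5.44. In MC minus M they had 0.25 and 0.09. Stag3 had a difference of 0.86, and 0.90 in MC minus M, and Smc1b had 0.54 and -0.18, whereas Smc1a, Pds5b and the centromere protector Sgo1 had -0.50, -0.40 and -0.55. The median of the list was -0.09, and it lay at 0.045 with cyclic loess scaling.

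Genes that make and repair meiotic breaks were divided. Of 22, Meiob, a single-strand binding protein gene of strand exchange, was at 4.55 in F and 6.65 in FC, and Prdm9, which marks recombination hotspots, at 4.26 and 5.31, and these were the 2 that were 2-fold higher. Tex15 had 0.99 and Dmc1, the meiotic recombinase, 0.66, while Spo11, which cuts the DNA, was at 4.53 and 4.77. Mnd1, an accessory factor of DMC1, was at 11.78 in F and 10.90 in FC, the lowest difference of the list. The median was -0.005 and was above 0 with quantile normalization and with cyclic loess. No crossover or telomere gene reached 2-fold, but 10 of 12 crossover genes were above 0, with a median of 0.36, or 0.22 among those at or above the median signal, led by Shoc1 at 0.91, and so were 7 of 8 genes of telomere attachment, with a median of 0.23, led by Terb1 at 0.77. In MC minus M the median of all 81 genes was 0.00 and 5 were 2-fold higher.

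Of 36 genes restricted to the germline, 32 were above 0 and 12 were 2-fold higher, among them the axis genes Sycp3 and Hormad1 already counted above, with a median of 0.67, and in MC minus M also 32 were above 0, with a median of 0.39. Tktl1, an X-linked transketolase paralogue, was at 5.33 in F and 8.80 in FC, an 11.1-fold higher signal, and at 4.70 in M and 6.38 in MC. Tex101, a surface protein gene of male germ cells, was at 5.63 and 8.73, and at 4.70 and 6.01. Ccnb3, a cyclin gene of meiosis, was at 4.50 and 7.19, and H2bc1, a germline histone H2B gene, at 12.42 and 14.85. Nanos3, which protects migrating germ cells from death, was the lowest of the list at 9.06 in F and 8.20 in FC. Of 26 genes of the piRNA pathway and germ granule, 4 were 2-fold higher and all 4 were so in MC minus M as well. They were Tdrd9, Mael, Mov10l1, a helicase gene of piRNA biogenesis, at 8.80 and 10.33, and Ddx4, the VASA helicase gene, at 9.95 and 11.08. The other 22 stayed within 2-fold, down to Pnldc1 at -0.64, and the median of the list was 0.07, or 0.20 among those at or above the median signal. Over the meiosis, germline and piRNA lists together, which share members, 27 of 141 genes were 2-fold higher, against 0.547% of all genes. Among all genes with a mean signal of 6 to 8 the share was 1.24%, and of 8 to 10 it was 1.44%. The lists were chosen with earlier results of these data known, so their larger share may partly follow from that choice. In all 27 the signal was higher in F than in M and highest in FC. The choice of the 27 required FC above F, so that part of the order is set by it. F lay above M more widely, with a median F minus M of 0.15 over 5200 autosomal genes with a signal of 8 or more. For some of the 27 the step was small, as for Tdrd9, at 4.58 in F and 4.54 in M, and Rad21l, at 3.54 and 3.50. The share of all genes with F above M is not given here.

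**Figure D3:**
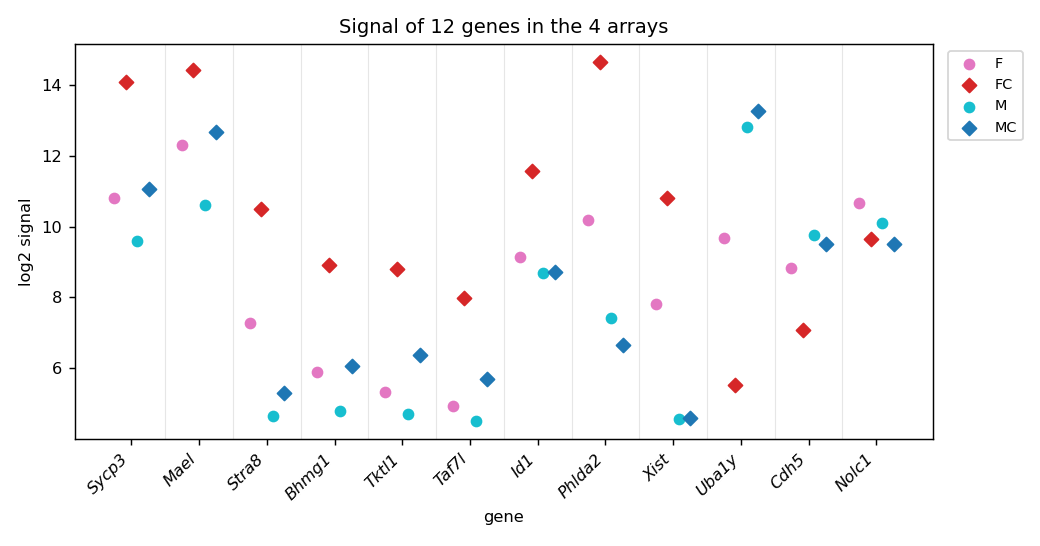
Log2 signal (y axis) of 12 genes in F, FC, M and MC, each point 1 array. FC is the highest of the 4 arrays for the first 9 genes, and for Uba1y F lies between FC and the XY arrays.

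Genes of oocyte growth had a median difference of -0.03, and 2 of 25 were 2-fold higher, against 0.547% of all genes. The median signal of this list was 3.68, and 1 of the 12452 genes under a signal of 4 was 2-fold higher. The median difference thus rests largely on genes of low signal. Figla, which directs primordial follicle formation, was at 4.72 in F and 6.10 in FC, and Sohlh1, an early oocyte factor gene that was under 2-fold with median centring and cyclic loess, at 4.25 and 5.27. The oocyte factors Nobox and Lhx8 stayed at 3.56 and 3.88 in FC, and the zona pellucida genes Zp1, Zp2 and Zp3 at 3.36, 3.34 and 3.43. Khdc3, of the subcortical maternal complex, was on the other side at 7.0 in F and 5.40 in FC. Genes of primordial germ cell identity had a median of 0.13. Of these 21 genes Ddx4 alone reached 2-fold, while Pou5f1 had a difference of 0.57, Dppa3 of -0.31, Kit of -0.04 and Dppa5a of -0.11, so the markers of the sorted cells were present on both arrays. Genes of XY germ cell fate were below 0 in 13 of 14 cases, with a median of -0.28, or -0.52 among those at or above the median signal. The exception was Mov10l1, and the lowest were the Nodal pathway genes Lefty2, at 5.53 in F and 4.18 in FC, with 6.01 in M and 6.01 in MC, and Tdgf1, the co-receptor gene, at 5.04, 4.18, 5.04 and 5.48. For both, F lay near the XY arrays and FC below all of them. Nanos2 was at 4.05 and 3.61.

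Of signalling groups, genes of the BMP response were higher in FC than in F. Of 17, 5 were 2-fold higher and 14 above 0, with a median of 0.23, against -0.05 in MC minus M. Id1, an inhibitor of basic helix-loop-helix factors and a direct BMP target, was at 9.13 in F and 11.56 in FC, with 8.68 in M and 8.72 in MC. Id3 was at 8.87 and 9.93 in F and FC, Id2 at 10.73 and 11.76, Gata2 as given above, and Msx2 at 7.05 and 8.29. None of these 5 was above 0.04 in MC minus M. The ligand genes Bmp2 and Bmp4 had differences of 0.70 and 0.00, and the antagonist gene Bambi -0.43. Of 21 genes of retinoic acid supply and response, Stra8, Rec8 and the synthesis enzyme gene Aldh1a2, at 7.57 and 8.57 and under 2-fold with median centring, were 2-fold higher, the receptors Rara, Rarb and Rarg had -0.14, 0.08 and 0.07, and the catabolic enzyme genes Cyp26a1 and Cyp26b1 had -0.10 and 0.02. In the Wnt list Porcn, the X-linked enzyme gene that acylates Wnt ligands, was at 7.71 in F and 10.01 in FC, with 6.11 in M and 5.81 in MC, while the feedback targets Axin2 and Lef1 had 0.51 and 0.22.

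Immediate early genes were higher as a group. Of 21, 20 were above 0 and 6 were 2-fold higher, with a median of 0.79, against 0.24 and 0 genes at 2-fold in MC minus M. Fos, of the AP-1 dimer, was at 6.31 in F and 7.63 in FC, Fosb at 8.18 and 9.61, and Fosl2 at 6.90 and 8.20. Klf6, a zinc finger factor gene, was at 10.42 and 12.02, Ccn1, a matricellular protein gene, at 10.30 and 12.05, and the phosphatase gene Dusp1, under 2-fold with median centring, at 10.92 and 11.94. FC was the highest of the 4 arrays for all 6. Of the cell cycle inhibitors and stress genes near them, Gadd45b was at 9.63 and 11.32, and of 23 p53 target and apoptosis genes 0 reached 2-fold in either direction.

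Genes of growth were lower together, each by a small amount. Of 101 measured genes of ribosome biogenesis, nucleotide synthesis, translation and ribosomal proteins, 88 were below 0 and 5 were at least 2-fold lower, with a median of -0.32, or -0.18 with cyclic loess. Ribosome biogenesis had the lowest median, -0.47, with 30 of 33 genes below 0, against -0.39 and 31 in MC minus M. Rrp9, of the U3 snoRNP, was at 9.57 in F and 8.48 in FC, with 9.49 in M and 8.75 in MC. Nolc1, a nucleolar chaperone gene, was at 10.67, 9.66, 10.11 and 9.50, and Bop1, of the large subunit pathway, at 10.62, 9.61, 10.70 and 10.02. In these 3 genes the arrays with CreERT2 lay below their controls in both sexes, and the 3 were under 2-fold with quantile normalization and with cyclic loess. Of 26 genes of nucleotide, one-carbon and polyamine synthesis 22 were below 0, and Shmt1, a serine hydroxymethyltransferase gene, at 9.95 and 8.74, and Srm, of spermidine synthesis, at 11.80 and 10.78, were 2-fold lower. Srm was under 2-fold with both of these scalings. Of 26 translation factor and aminoacyl-tRNA synthetase genes 23 were below 0, with a median of -0.26, from Farsa at 0.26 to Tars at -0.76. Ribosomal protein genes had a median of -0.09. These lists have high signal, and all genes with a mean signal of 8 to 10 had a median of -0.12, with 1.54% at least 2-fold lower. Of 5200 autosomal genes with a signal of 8 or more 32.4% were above 0, against 11 of the 101 growth genes. Genes of mitosis and of DNA replication had medians of -0.19 and -0.17, with 0 of 31 and 0 of 34 at 2-fold.

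**Figure D4:**
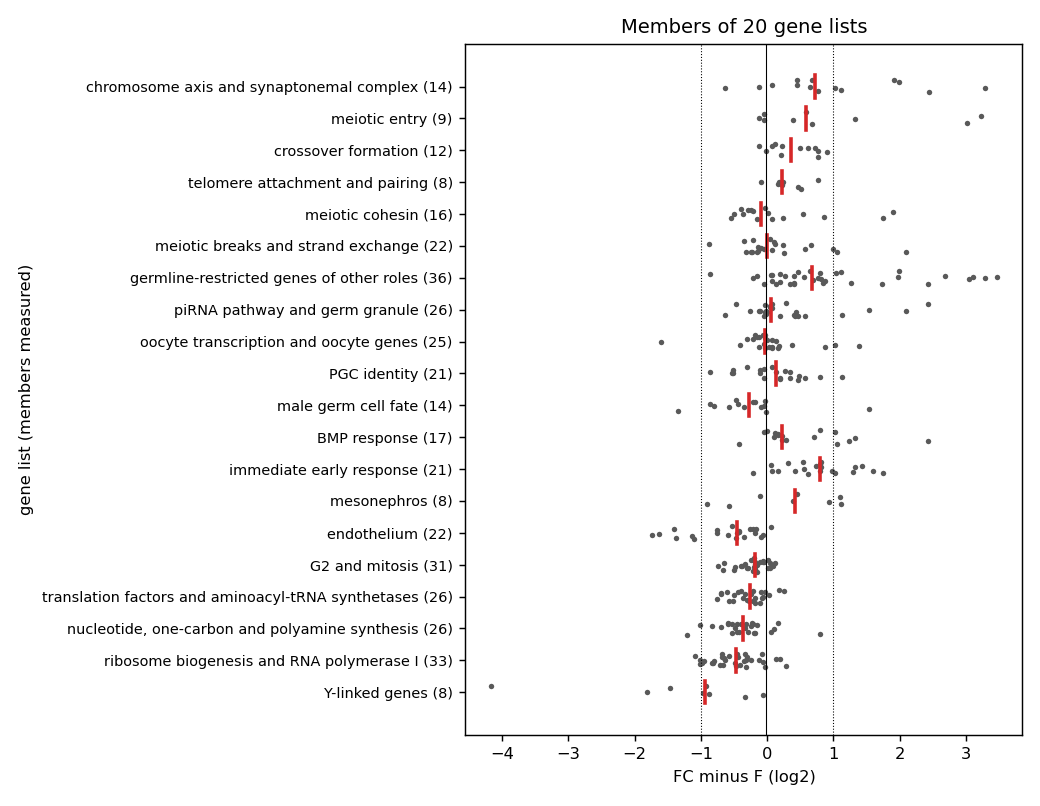
Difference FC minus F (log2, x axis) of each measured member of 20 gene lists (y axis, number of members in brackets), with red bars at the medians, a solid line at the median of all genes and dotted lines at 2-fold. The axis, germline and immediate early lists lie to the right and the growth, endothelial and Y-linked lists to the left.

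No gene of the MAX network differed by 2-fold. Max was at 10.75 in F and 10.31 in FC, a difference of -0.44, and at 10.64 and 10.33 in M and MC. Values by exon were not analysed here, so this signal is no measure of the deletion. Of 13 genes of the MAX, MYC and MXD network 0 reached 2-fold, from Mxd4 at 0.42 to Max, with Myc at 0.36, Mycn at 0.15, Mnt at -0.07 and Mga at 0.31. Of 16 PRC1.6 genes 0 reached 2-fold, from the paralogous subunit gene Cbx8 at 0.80 to E2f6 at -0.44, with L3mbtl2 at 0.21, Pcgf6 at -0.15, Rnf2 at 0.05 and Ring1 at -0.26. Of other chromatin genes, Tet1, which oxidizes 5-methylcytosine, was at 9.78 in F and 8.76 in FC, with 9.69 in M and 9.77 in MC, and Tasor2, related to a HUSH subunit, at 9.90, 8.56, 9.66 and 8.30. Tasor2 was thus lower with CreERT2 in both sexes, whereas Tet1 had 0.08 in MC minus M and was under 2-fold in FC minus F with quantile normalization and with cyclic loess. Phf19, an accessory subunit gene of PRC2, was at 8.46 and 9.57 in F and FC, and at 7.19 and 6.60 in M and MC.

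The X chromosome held more of the higher genes than any autosome. Of 1866 X-linked genes 38 were 2-fold higher (2.04%) and 3 were 2-fold lower, whereas the share of higher genes was between 0.195% and 0.783% on the 19 autosomes. X-linked genes made up 22.6% of the higher genes and 6.07% of all named genes. In MC minus M 10 X-linked genes were 2-fold higher and 6 lower. For 1 of the 38, Mir325, the identifier of the cluster gives another chromosome. Of the 38, 31 were above 0 in MC minus M, with a median of 0.45, and 5 were 2-fold higher. They include members of families of the germline with many near-identical copies, for which the array may not tell the copies apart, with 6 of the Xlr family, such as Xlr4a with a signal of 8.5 in F and 9.80 in FC, together with 3 of the Fthl17 family of ferritin-like genes, such as Fthl17e at 8.04 and 9.24. Gm6221 and Gm7905 had identical values on all 4 arrays and so are not separate measurements. Rhox6, a homeobox gene of germ cells, was at 11.42 and 12.57, and Magea4 at 4.93 and 6.04. The X-linked genes Tktl1, Taf7l, Ccnb3 and Nxf2 are on the germline list above.

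Beyond the genes at 2-fold, X-linked genes as a whole sat above autosomal ones. Among 303 X-linked genes with a signal of 8 or more the median of FC minus F was 0.05 and 55.4% were above 0, against -0.11 and 32.4% of 5200 autosomal genes, and the medians of the single autosomes lay between -0.15 and -0.09. In MC minus M the medians were -0.06 for the X chromosome and -0.13 for autosomes. Set between the sexes, the same X-linked genes had a median F minus M of 0.16, close to 0.15 for autosomal genes, and a median FC minus MC of 0.31, against 0.15. The X-linked genes of FC thus lay further above those of XY cells than autosomal genes did, and those of F hardly so. Xist and the Y-linked genes move with these values, and their part was not tested. Counting autosomal genes alone, 130 genes were 2-fold higher and 149 lower.

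**Figure D5:**
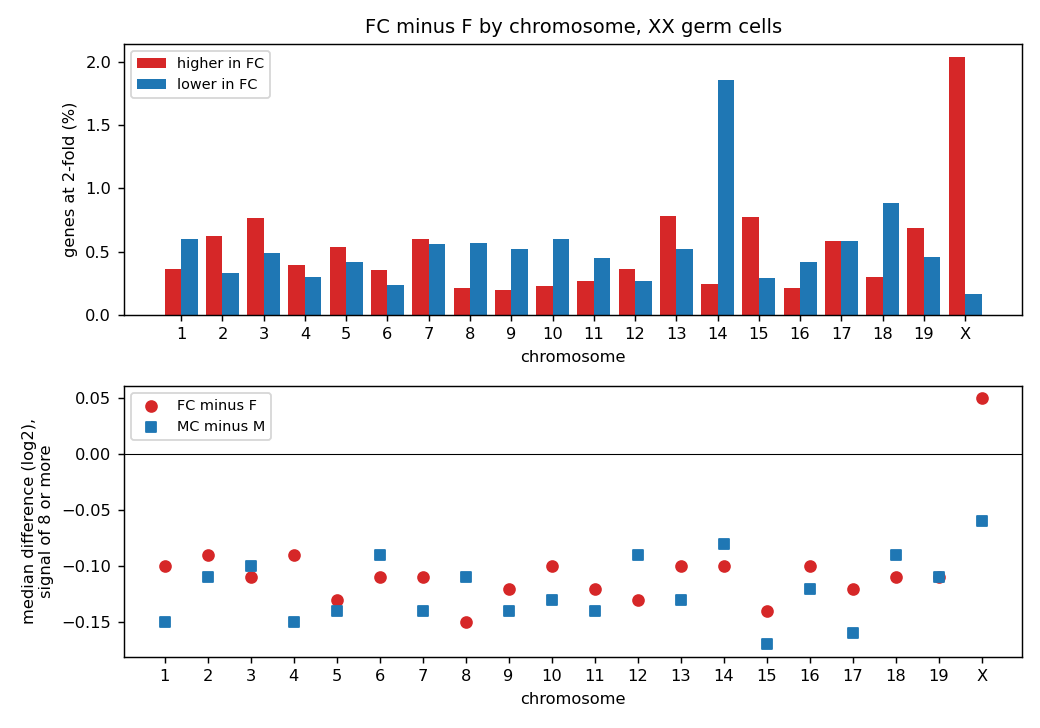
Upper panel, share of genes at 2-fold (y axis, percent) that were higher (red) or lower (blue) in FC than F on each chromosome (x axis). Lower panel, median difference (y axis, log2) of genes with a signal of 8 or more in FC minus F (red circles) and MC minus M (blue squares). The X chromosome stands out in higher genes at 2.04% and in its median at 0.05, and chromosome 14 in lower genes at 1.86%.

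Among the lower genes, chromosome 14 stood out, with 23 at 2-fold (1.86% of its genes). Beside Ppif and Hesx1, 21 of these carry symbols of predicted genes, such as Gm10340, at 10.65 in F and 9.17 in FC, with 10.59 in M and 10.54 in MC, and 2610042L04Rik, at 9.52, 8.39, 9.29 and 9.61. FC was the lowest of the 4 arrays for all 21, whose differences lay between -1.58 and -1.03 in FC minus F and between -0.08 and 0.55 in MC minus M. No pairwise Pearson's r was under 0.84, over 4 points that share their arrays. All 21 were chosen for a lower FC, which by itself raises r, so the r does not show that they are copies. Clustered predicted genes of this kind can be near-identical copies that share probes, so the 21 are not read as separate measurements.

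Small nucleolar RNA genes were the other block of lower genes. RNAs of this class guide the chemical modification of ribosomal RNA. Of 955 such genes 29 were 2-fold lower (3.04%) and 3 were 2-fold higher, and of 63 with a symbol of the Snord and Snora kind 16 were 2-fold lower, with a median of -0.44. Snord87 was at 9.50 in F and 7.32 in FC, with 8.81 in M and 8.04 in MC. Snora73b was at 12.31, 10.87, 11.81 and 10.37, and Snora68 at 10.01, 8.43, 9.50 and 7.86, so that these 2 were lower with CreERT2 in both sexes. Gm26265 and Gm22980, predicted genes of this class, had differences of -2.07 and -2.02. Of the 29, 17 were below 0 in MC minus M, with a median of -0.30. Without genes of this class and the chromosome 14 block, an alternative chosen after seeing the data, 106 genes were lower.

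Of 921 microRNA genes 10 were 2-fold higher (1.09%) and 6 were lower (0.651%). The mature sequences of those with the largest differences are shown to identify them, from RefSeq on GRCm38.p6, 5′ to 3′ with the seed, bases 2 to 8, in capitals.
mmu-miR-5123 (chr4:40850057-40850080, minus strand): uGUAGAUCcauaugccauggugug
mmu-miR-493-5p (chr12:109580243-109580261, plus strand): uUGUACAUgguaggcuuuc
mmu-miR-493-3p (chr12:109580283-109580305, plus strand): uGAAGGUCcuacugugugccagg
mmu-miR-1931 (chr10:93162879-93162900, plus strand): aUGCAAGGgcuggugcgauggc
Mir5123 was at 4.40 in F and 7.91 in FC, with 9.38 in M and 7.11 in MC, so that F stood below the other 3 arrays and the XY difference was of the opposite sign. Mir493, of the imprinted Dlk1-Dio3 region, was at 6.39 in F and 3.93 in FC, with 4.19 in M and 4.96 in MC, where F stood above the rest, and Mir1931 was at 8.46, 6.07, 7.40 and 8.05. For 3 of the 16 genes the identifier of the cluster gives a chromosome other than that of the gene, and no values are given for them. The 22 mature sequences found for 14 of the 16 genes had 22 different seeds. Total RNA was labelled, and whether these probes read the mature RNA or its precursor is not given in the sources used here.

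Phlda2 was the 1 imprinted gene of 43 that reached 2-fold. The median of the list was -0.04 and turned to 0.02 with cyclic loess. Its neighbours in the Kcnq1 imprinted domain had small differences, with 0.24 for Slc22a18, -0.09 for Cdkn1c, 0.08 for Kcnq1ot1, 0.00 for Tssc4 and -0.08 for Ascl2. The paternally expressed Peg10 was the lowest, at 10.93 in F and 10.08 in FC, and Igf2 was at 8.41 and 8.29.

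Markers of other cell types also differed between F and FC, in both directions. Endothelial genes were lower, with 21 of 22 below 0 and 6 at 2-fold, a median of -0.46, and a summed signal of the list of 11.73 in F and 10.88 in FC, with 12.18 in M and 11.98 in MC (log2). Cdh5, the cadherin of endothelial junctions, was at 8.82 in F and 7.09 in FC, with 9.75 in M and 9.52 in MC, and the receptor gene Kdr at 7.31, 5.91, 7.80 and 7.93. The other 4 were Aplnr, Cldn5, Emcn and Robo4, whereas Pecam1, which germ cells also express, was at 9.30 and 9.36. In such sorted samples fewer cells of a type and less RNA per cell cannot be told apart. Genes of the gonadal interstitium had a median of -0.33, with 0 of 14 at 2-fold. The summed signals in F and FC were 15.28 and 14.72 for 16 erythroid genes, 9.15 and 8.89 for 22 macrophage genes and 13.18 in both for 14 platelet genes. Of the macrophage genes Tyrobp alone was 2-fold lower, and of the platelet genes Thbs1 was 2-fold higher, at 7.58 and 8.85, and Clec1b 2-fold lower, at 6.10 and 5.05.

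Of the 15 genes of coelomic epithelium and keratins 8 were above 0 and 7 below, with a median of 0.05, and 2 keratin genes were 2-fold higher. Krt18 was at 12.71 in F and 14.19 in FC, with 13.16 in M and 12.95 in MC, and its partner Krt8 at 11.28, 12.61, 11.96 and 11.49, whereas Bnc1, of the same list, was at 7.64 and 6.64 and under 2-fold with quantile normalization and cyclic loess. The summed signal of the list, of which Krt18 and Krt8 make up much, was 13.30 in F and 14.66 in FC, with 13.84 in M and 13.61 in MC. Of 8 mesonephros genes the kidney cadherin gene Cdh16, at 9.0 and 10.11, and Cdh6, at 7.27 and 8.37, were 2-fold higher, Pax8 had 0.94 and Pax2 0.45, while Lhx1 and Ret had -0.58 and -0.91. The summed signal of that list was 10.90 in F and 11.50 in FC, with 10.66 in M and 11.18 in MC. On no fixed list, and picked because they were seen to be 2-fold higher, are 3 genes known from kidney tubules. They do not stand for such genes as a group. The endocytic receptor gene Cubn was at 5.53 in F and 7.40 in FC, with 5.59 in M and 5.59 in MC. Its partner Lrp2 was at 6.22, 7.39, 7.08 and 7.08, and Fxyd2, a sodium pump subunit gene, at 7.98, 9.71, 8.83 and 9.58. For Lrp2 and Fxyd2, F was the lowest array and FC lay closer to MC than to F. Hsd11b2 and Klk1, also known from kidney tubules, were 2-fold lower, at 7.88 in F and 6.64 in FC and at 6.35 and 4.97. The mesonephros had been removed before sorting, according to the study's methods. The part of other cells in the differences was not tested.

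Beside the XY comparison, with which it shares no array, 25 of the 168 higher genes were also 2-fold higher in MC than M, which is 14.9% of the XX list and 36.2% of the 69 genes of the XY list (0.224% of all genes). For the lower genes 13 were shared, 8.33% of the 156 and 8.90% of the 146 of the XY list (0.475% of all genes). In MC minus M the 168 genes had a median of 0.19 and 67.3% were above 0, against 50.6% of all genes, and the 156 had a median of -0.17 and 60.3% were below 0, against 47.3%. Of the 27 meiosis and germline genes higher in XX germ cells 14 were 2-fold higher in XY cells. The lists that held 2-fold higher genes in XX germ cells and none in XY cells were the meiotic cohesins, breaks and strand exchange, oocyte, retinoic acid, BMP, Wnt and immediate early lists among the meiosis, germline, signalling and stress lists described above, and no test was made of the sexes against each other. These lists held between 1 and 6 such genes in XX cells, and fewer genes reached 2-fold higher in XY cells at all. A list with none at 2-fold may still lie above 0 in MC minus M, as did 18 of 21 immediate early genes, whereas 7 of 17 BMP genes did.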

How the data were processed

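The deposited table holds log2 signals, to 2 decimals, of 65956 transcript clusters on 4 arrays (F, FC, M and MC, 1 each), which were used as they stand. The study's methods name robust multiarray analysis in R and the submitters' processing notes name Transcriptome Analysis Console, so which made the values is not settled, and the identifiers are not of the array type that the methods name. Clusters were named from the platform annotation with RefSeq symbols, chromosomes and biotypes of GRCm38.p6, which changed 330 symbols. Of the clusters, 1522 carried several genes and 33142 were not in the annotation table, and these stayed unnamed. With 1 array per group no test was run, the number of arrays limits the precision, and genes were counted at a log2 difference of 1. Gene lists and members were chosen with earlier results of these data known, and the lists share genes. Named genes were Max, the 10 largest differences in each direction at or above the median signal, up to 6 members at 2-fold of each list or otherwise its extremes, Y-linked genes and Xist, genes of opposite sign in the sexes, and members of the meiosis, MAX and PRC1.6 lists, with further list members as examples. Motif searches used RefSeq promoters. Alternatives were quantile normalization, median centring, cyclic loess, a signal filter, mean clusters, every cluster, protein-coding genes alone and thresholds of 1.5-fold and 3-fold, and, chosen after seeing the data, autosomal genes alone, identical values counted once, and no snoRNA or chromosome 14 family genes. Python 3.11.15 with pandas 2.3.3 and limma 3.58.1 in R 4.3.3 served for these steps, and the counting was tested on simulated data.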

Additional observations from a re-analysis of the deposited data

Results flagged for a closer look

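In 5 genes with at least median signal the XX and XY germ cells differed by 2-fold or more in opposite directions, and this contrast of the sexes was not tested. Mir5123 had 3.51 in FC minus F and -2.27 in MC minus M. Tuba4a, an alpha-tubulin gene, had 1.6 and -1.26, and Thbs1, the thrombospondin gene of platelets, 1.27 and -2.07. Cst9 had -2.07 and 1.51, and the pseudogene Gm21028 had -1.14 and 1.18. Signal was also found in the 34664 clusters with no name for 1 gene, of which 134 were at least 2-fold higher in FC than F (0.387%) and 215 lower (0.620%), with differences up to 4.06 and down to -2.86.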

How the results depend on the processing

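The counts of 168 higher and 156 lower genes stayed within 1.5 times under quantile normalization, median centring and cyclic loess (158 to 191 higher and 123 to 176 lower), under the signal filter and with the mean of a gene's clusters. They became 613 and 863 at 1.5-fold, 44 and 23 at 3-fold, and 305 and 376 over every transcript cluster, and protein-coding genes alone gave 129 and 95. Meiosis genes higher in FC numbered 27 at 1.5-fold, and X-linked genes 84 at 1.5-fold and 12 at 3-fold. Of 97 named genes at 2-fold, 8 were under it with quantile normalization, 5 with median centring and 9 with cyclic loess, and 0 changed sign under these scalings. Cyclic loess raised the medians of several lists of high signal, as for G2 and mitosis, from -0.19 to -0.05, meiotic cohesin, from -0.09 to 0.045, and PGC identity, from 0.13 to 0.24. No paired analysis was possible because each group has 1 array. No count could be made without the F array, since every difference uses it.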

Other observations

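Of 1229 olfactory receptor genes and 303 vomeronasal receptor genes 0 differed by 2-fold in FC minus F, with median signals of 3.43 and 3.51, a range of signal in which nearly no gene did. Of 33 Hox genes 0 did. Of 344 solute carrier genes and of 139 T cell receptor segments 2 each were 2-fold higher, against 0.547% of all genes. Counts this small are not read as a result about these families. Of 29 genes of glycolysis and hypoxia 20 were above 0, with a median of 0.11, and of 35 nuclear genes of oxidative phosphorylation 24 were below 0, with a median of -0.07. Of 27 replication-dependent histone genes 3 were 2-fold higher, H2bc1, H3c3, at 7.91 in F and 8.99 in FC, and H2ac15, at 9.17 and 10.17, and the last 2 were below 0 in MC minus M, at -0.24 and -0.94. H2ac15 was under 2-fold with median centring.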
